A study of Drosophila melanogaster with 8 samples.

Results

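CG31198 and CG31233 are neighbouring genes on chromosome arm 3R of Drosophila melanogaster. They were chosen by name, as 2 of the 15146 genes measured, and both are listed for embryos and for sperm. The name was picked with the sugar comparison in view: CG31198 is the gene that the authors' test called in both tissues, and CG31233 is the gene beside it that was also called in embryos. The levels and differences of the pair between the sugar groups are therefore a description of what chose them, and nothing below rests on them as evidence.

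The study used w1118, a white-eyed laboratory strain that served as the background of all groups. Embryos of the F1 generation were collected as whole animals at stage 17, the last stage before hatching, from fathers fed high sugar (300 g/L) or fathers fed medium sugar (30 g/L). Sperm came from adult males fed high sugar (300 g/L) or medium sugar (30 g/L). The 8 libraries, 2 per group, were made from total RNA after removal of ribosomal RNA. The age of the flies, the diet of the mothers and the number of animals in a library are not stated in these sources. Values are FPKM, the sequenced fragments of a gene scaled by library size and transcript length. The tables hold 1 FPKM per gene and group, so no spread between libraries stands beside any value and the depth is unknown.

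The M1 family of aminopeptidases, to which both genes belong by sequence family, consists of zinc enzymes that take single amino acids off the amino end of peptides. Many are anchored in the cell membrane with the catalytic part outside. In insects such enzymes are known from the brush border of the midgut, where they finish the digestion of dietary peptides, and in moths they are known as binding partners of bacterial Cry toxins. The family assignments here are background knowledge, since the tables carry symbols only.

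A gene counts as called at an adjusted p under 0.05, as read from the authors' deposited table. By this rule the authors' deposited table called 82 of 10163 tested embryo genes (0.807%), of which 72 were higher with high sugar fathers (0.708%). In sperm it called 22 of 6453 tested genes (0.341%), of which 21 were higher with high sugar (0.325%). Of these 22 sperm calls, 16 remained when the adjustment was run anew over the tested genes. Both tables carry the same column headers, which name only the sugar dose of fathers, so the tissue of each is known from the name of the table and was set against marker genes: all 20 spermatid markers averaged 1 FPKM or more in sperm, against 3 of the 20 in embryos. Of 9 muscle genes, 7 also did so in sperm, and the 9 summed to 2636 FPKM with high sugar and 2869 FPKM with medium sugar. The 20 spermatid markers summed to 1911 FPKM in high sugar sperm and 838 FPKM in medium sugar sperm. Act57B was the highest of the muscle genes, with 943 FPKM in high sugar sperm and 926 FPKM in medium sugar sperm. Act88F had 1.24 FPKM in high sugar sperm and 0.669 FPKM in medium sugar sperm. Act79B had 0.738 FPKM in high sugar sperm and was listed at 0 in medium sugar sperm. Where the muscle gene RNA of the sperm pools came from was not tested. How the tables were scaled to each other is not stated, so a level in sperm and a level in embryos are set side by side below without a test.

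CG31198 (FBgn0051198) lies at 3R:17580046-17583490 on the plus strand and CG31233 (FBgn0051233) at 3R:17575575-17578959 on the same strand, in the BDGP5 build of the tables. They are 1086 bases apart and together cover 7.916 kb. Neither locus overlaps that of another gene in the tables. In the newer BDGP6 annotation CG31198 has 1 transcript of 5 exons and 3019 bases with a coding part of 940 codons. CG31233 has 2 transcripts there, and the main one has 4 exons and 3059 bases with 952 codons. The transcripts of the pair are thus of nearly equal length.

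The pair sits inside a tandem row of 5 M1 aminopeptidase genes, all on the plus strand, which covers 29.197 kb at 3R:17565827-17595023. The order along the chromosome is CG5849, CG31343, CG31233, CG31198 and CG42335. The gaps between consecutive genes are 837, 849, 1086 and 1005 bases. Coding lengths in BDGP6 are close to each other, at 2904 bases for CG5849, 2883 for CG31343, 2856 for CG31233, 2820 for CG31198 and 2776 for CG42335. Whether reads were shared between these relatives was not tested.

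The embryo comparison asks whether the sugar in the father's food went with a difference in the RNA of the offspring. CG31198 had 12.6 FPKM in embryos of high sugar fathers, against 4.66 FPKM in embryos of medium sugar fathers, a ratio of 2.70. CG31233 had 5.83 FPKM in embryos of high sugar fathers, against 0.747 FPKM in embryos of medium sugar fathers, a ratio of 7.80. Both were higher with high sugar fathers, and the less abundant gene had the larger ratio. In the authors' deposited table both genes have an adjusted p of 0.00959. This is the smallest adjusted value there, since the unadjusted p of 5e-05 is the lowest the table holds and 53 embryo genes share it. In these pools of whole animals, more cells of a type and more RNA per cell cannot be told apart.

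Set among the other calls, the ratio of CG31233 was number 17 and that of CG31198 number 46 of the 55 called rises with both values above 0, whose median ratio was 3.67. CG31198 was the more abundant of the pair in both embryo groups, 2.16 times the level of CG31233 with high sugar fathers and 6.24 times with medium sugar fathers. In embryos of high sugar fathers 72.4% of all genes had a lower FPKM than CG31198, against 53.6% in embryos of medium sugar fathers. For CG31233 these shares were 57.6% with high sugar fathers and 32.5% with medium sugar fathers.

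The other genes of the row differed less between the embryo groups, and none was called. CG31343, directly upstream of CG31233, had 11.9 FPKM with high sugar fathers and 7.85 FPKM with medium sugar fathers, and the authors' deposited table gives it an unadjusted p of 0.0346 and an adjusted p of 0.999. CG5849, at the upstream end, had 9.81 FPKM with high sugar fathers and 9.29 FPKM with medium sugar fathers. CG42335, at the downstream end, had 3.32 FPKM with high sugar fathers and 3.41 FPKM with medium sugar fathers. The ends of the row were thus nearly level between the groups, while the 3 inner genes were higher with high sugar fathers. The pair made up 42.4% of the summed FPKM of the row with high sugar fathers (18.4 of 43.4 FPKM), against 20.8% with medium sugar fathers (5.41 of 26.0 FPKM).

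**Figure D1:**
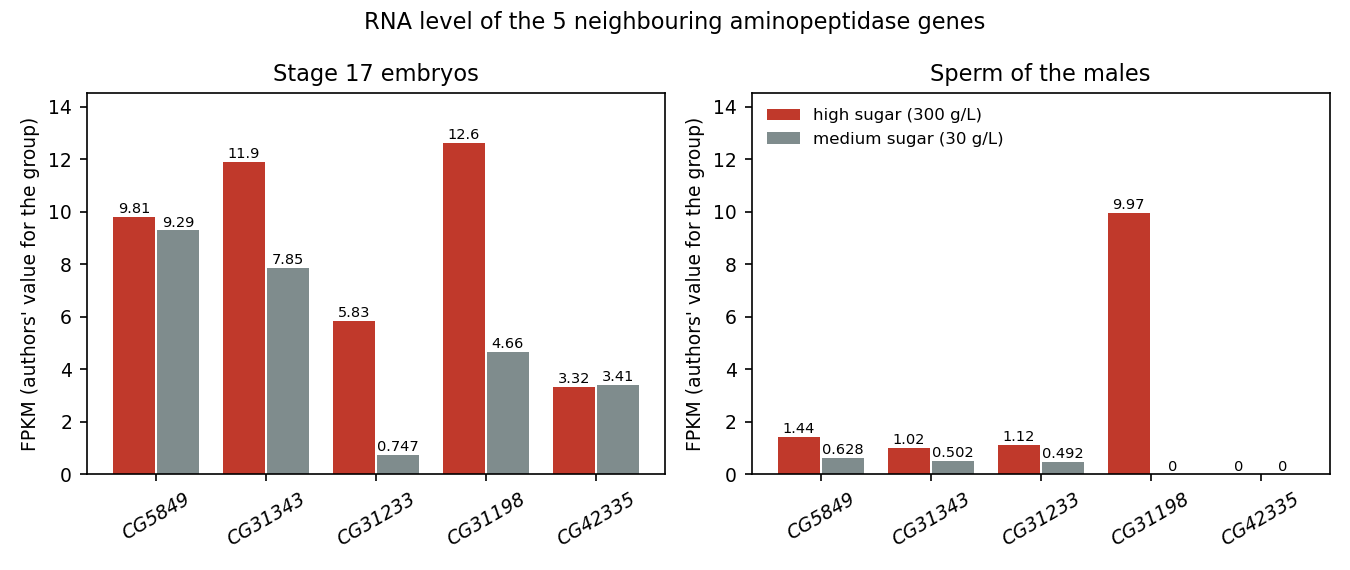
FPKM of the 5 neighbouring M1 aminopeptidase genes in embryos (left) and sperm (right), with high sugar in red and medium sugar in grey, and each bar the authors' single value for the group without an error. CG31198 and CG31233 show the widest gaps in embryos, and in sperm CG31198 stands at 9.97 FPKM with high sugar against 0 with medium sugar, while its relatives are at 1.44 FPKM or less.

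The sperm comparison asks whether the males' own food went with a difference in the RNA of their sperm. CG31198 had 9.97 FPKM in high sugar sperm and was listed at 0 in medium sugar sperm (adjusted p = 0.00749 in the authors' deposited table). Its unadjusted p of 5e-05 there is the lowest that the sperm table holds, and 16 sperm genes share it. A Benjamini-Hochberg adjustment of the p-values in the authors' deposited table, run anew over the 6453 tested genes, gave 0.0202 for CG31198 and called 16 genes (0.248%). CG31233 had 1.12 FPKM in high sugar sperm and 0.492 FPKM in medium sugar sperm, and the authors did not test it. In high sugar sperm CG31198 was 8.92 times as abundant as CG31233, while in medium sugar sperm CG31233 alone had a value above 0.

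Among the relatives in sperm, CG5849 had 1.44 FPKM with high sugar and 0.628 FPKM with medium sugar. CG31343 had 1.02 FPKM with high sugar and 0.502 FPKM with medium sugar. CG42335 was listed at 0 in both sperm groups. None of these 3 genes was tested in sperm, so CG31198 was the only tested gene of the row there. It alone carried most of the row's RNA in high sugar sperm, where the pair made up 81.8% of the summed FPKM of the row (11.1 of 13.5 FPKM). In medium sugar sperm the share was 30.3% of a small sum (0.492 of 1.62 FPKM), all of it from untested CG31233. The contrast restates the sperm value of CG31198 that helped to choose it.

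Since the sperm values of CG31198 helped to choose it, the place of its value of 0 among other genes is given as a description only, with a band of levels and a length limit chosen after the values were seen. Of 3640 genes with 5 to 20 FPKM in high sugar sperm, 54 were listed at 0 in medium sugar sperm. Among the 1639 of them with a transcript of 2 kb or more in BDGP6, 4 were so listed, and CG31198 had the highest value of these, ahead of Cyp6a18, salt and CG18170. In the other direction, of 1585 genes of that length with 5 to 20 FPKM in medium sugar sperm, 1 was listed at 0 in high sugar sperm. Most genes with such a gap were short: 80 genes had 5 FPKM or more in high sugar sperm and 0 in medium sugar sperm, and the median transcript length of the 76 with a BDGP6 length was 409.5 bases. Small nucleolar, small nuclear and transfer RNA genes are counted in that median and hold most of the highest values. It is therefore not the median of protein-coding genes alone. Of these 76, 2 were longer than the 3019 bases of CG31198.

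**Figure D2:**
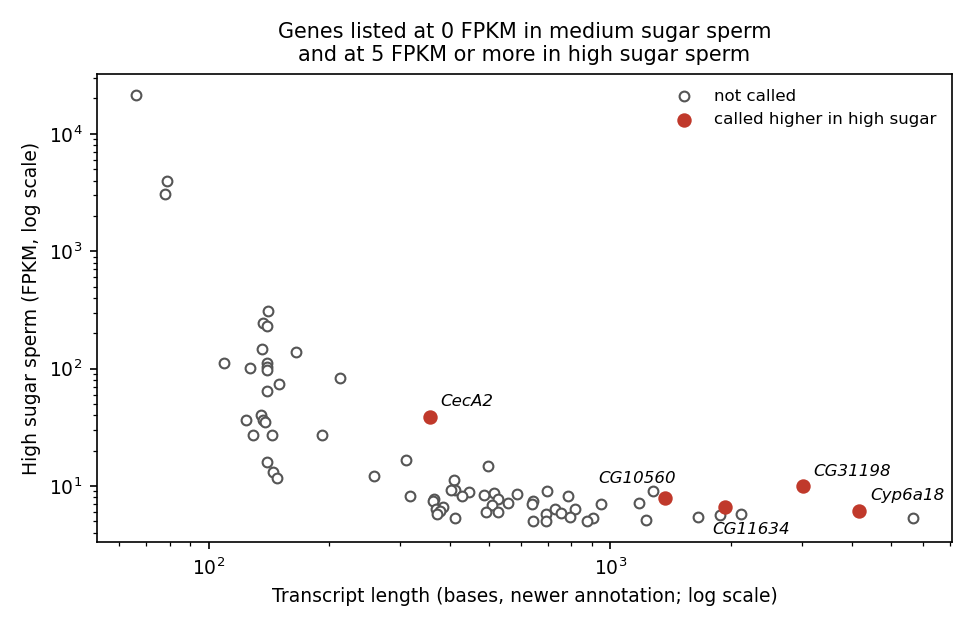
Transcript length in BDGP6 against FPKM in high sugar sperm, both on log scales, for the 76 genes of known length that were listed at 0 FPKM in medium sugar sperm and at 5 FPKM or more in high sugar sperm. Filled points are the 5 genes the authors' test called, among them CG31198 at 3019 bases and 9.97 FPKM, and 2 of the plotted genes are longer, Cyp6a18 and CG18170.

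Called rises with 0 FPKM in medium sugar sperm numbered 5. CecA2, an antimicrobial peptide gene, stood highest with 39.0 FPKM in high sugar sperm, and CG31198 came next with 9.97 FPKM. CG10560 had 7.96 FPKM, CG11634 had 6.57 FPKM and Cyp6a18, a cytochrome P450 gene, had 6.15 FPKM in high sugar sperm. CG31198 was the 1 gene called in both tissues, which is 1.22% of the 82 embryo calls and 4.55% of the 22 sperm calls. Most calls of either tissue could not recur in the other table, since 12 of the 82 embryo calls were tested in sperm and 6 of the 22 sperm calls were tested in embryos.

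Over all 4 groups, the level of CG31198 was highest in embryos of high sugar fathers (12.6 FPKM), followed by high sugar sperm (9.97 FPKM), embryos of medium sugar fathers (4.66 FPKM) and medium sugar sperm (0). That of CG31233 was highest in embryos of high sugar fathers (5.83 FPKM), followed by high sugar sperm (1.12 FPKM), embryos of medium sugar fathers (0.747 FPKM) and medium sugar sperm (0.492 FPKM). The order of the groups was the same for both genes. Part of it was fixed by the choice, since both were called higher in embryos and CG31198 in sperm. CG31233 was not tested in sperm, and how the tissues were scaled to each other is not stated. Which neighbours in the order differ beyond the spread of libraries is unknown, because the tables hold 1 value per group.

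Within 20 kb of the pair lie 12 other genes, and none of them was called in either tissue. In the authors' deposited table, from Cuffdiff per the submitters' processing notes, 1 of the 6 neighbours tested in embryos had an unadjusted p under 0.05, CG31343, against 3.34% of all tested embryo genes. Of the 3 neighbours tested in sperm, 1 had such a p, CG34034, against 3.95% of all tested sperm genes. With 0.807% of embryo genes and 0.341% of sperm genes called, so few tested neighbours would usually hold no call, and nothing is read from the counts. The nearest other called embryo genes on 3R were Cpr92F at 1077 kb on the left and CG5326 at 774 kb on the right. With 82 embryo genes called in all, calls are sparse everywhere, and nothing is read from these distances.

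Downstream of the row the neighbours have unrelated roles. The gene burs, which encodes a subunit of the tanning hormone bursicon, had 1.61 FPKM in embryos of high sugar fathers and 2.35 FPKM in embryos of medium sugar fathers. GABA-B-R2, a metabotropic GABA receptor subunit, had 2.39 FPKM with high sugar fathers and 2.53 FPKM with medium sugar fathers. RpI12, a subunit of RNA polymerase I, had 8.92 FPKM with high sugar fathers and 7.21 FPKM with medium sugar fathers. It shares its locus string with CG6800 on the other strand. The libraries were stranded, but the options of the counting are not stated, so how well these 2 genes were separated is unknown. None of these genes reached 2 FPKM in sperm.

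Upstream of the row lie 5 small genes on the minus strand, of which 3 had clear values in sperm and little or none in embryos. CG34034 had 164 FPKM in high sugar sperm, against 47.6 FPKM in medium sugar sperm (unadjusted p = 0.00075 and adjusted p = 0.0822 in the authors' deposited table). Recomputed over the tested genes from the authors' deposited table, its adjusted p was 0.167. Sfp93F, named as a seminal fluid protein, had 48.5 FPKM in high sugar sperm and 19.0 FPKM in medium sugar sperm. CG42870 had 2.92 FPKM in high sugar sperm and 12.0 FPKM in medium sugar sperm. CG42869 was listed at 0 in all 4 groups, and CR43096 had 0.198 FPKM in embryos of high sugar fathers and 0 in the other groups. The tested genes nearest to the pair in sperm thus lay on both sides of equal levels, and none of them was called.

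**Figure D3:**
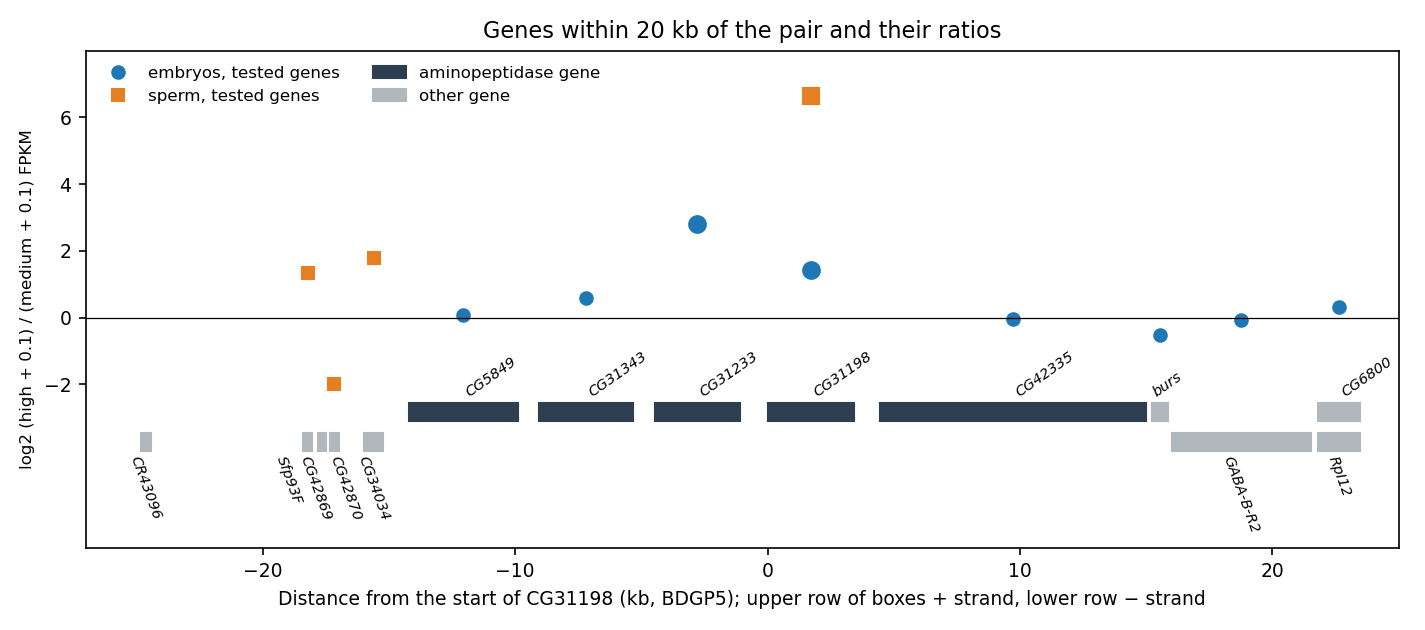
Genes within 20 kb of CG31198 and CG31233 drawn as boxes by distance from the start of CG31198 in kb, with the log2 ratio of high over medium sugar, from FPKM plus 0.1, above each tested gene for embryos (circles) and sperm (squares). The larger symbols of the pair stand at 2.81 and 1.42 in embryos and, for CG31198, at 6.65 in sperm, where the ratio has no finite value without the added 0.1.

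The M1 family was followed through a list of 20 genes found in the tables, 14 of them on 3R. In embryos 18 were tested, and the authors' deposited table calls 2 higher and 0 lower, the 2 being CG31198 and CG31233. Against the 0.807% called among all tested genes, this count holds nothing beyond the pair that the choice itself supplied. The median log2 ratio over the 18 was -0.03, against -0.04 over all tested embryo genes, and 8 were higher and 10 lower with high sugar fathers. In the authors' deposited table an unadjusted p under 0.05 was reached by 5 of the 18, against 3.34% of all tested embryo genes. Without the pair it was reached by 3 of 16, namely CG31343, CG8773 and CG8774.

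CG8773 and CG8774 form a second tandem row with CG32473, at 3R:9120472-9138507, with gaps of 558 and 318 bases on the plus strand. CG8774 had 6.27 FPKM in embryos of high sugar fathers, against 2.71 FPKM in embryos of medium sugar fathers, a ratio of 2.31 (unadjusted p = 0.00075, adjusted p = 0.0856 in the authors' deposited table). CG8773 had 6.76 FPKM with high sugar fathers, against 3.08 FPKM with medium sugar fathers, a ratio of 2.19 (unadjusted p = 0.001, adjusted p = 0.107 in the authors' deposited table). CG32473, the last of the row, had 16.1 FPKM with high sugar fathers and 16.4 FPKM with medium sugar fathers. As in the row of the pair, a gene nearly level between the groups lay next to genes that were higher with high sugar fathers. None of the 3 passed the threshold.

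The remaining group on 3R showed no such difference. SP1029 had 16.0 FPKM with high sugar fathers and 17.8 FPKM with medium sugar fathers. CG31445 had 1.04 FPKM with high sugar fathers and 1.12 FPKM with medium sugar fathers. CG11951 had 2.18 FPKM with high sugar fathers and 2.31 FPKM with medium sugar fathers. CG14516, somewhat apart from them, had 1.86 FPKM with high sugar fathers and 3.09 FPKM with medium sugar fathers (unadjusted p = 0.0886 in the authors' deposited table).

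The abundant family members of embryos were nearly level between the groups. CG4467 was the highest, with 29.1 FPKM with high sugar fathers and 36.0 FPKM with medium sugar fathers. CG10602, related to the leukotriene A4 hydrolase of mammals, had 21.0 FPKM with high sugar fathers and 19.4 FPKM with medium sugar fathers. The slamdance gene sda, named for the seizures of its mutants, had 19.8 FPKM with high sugar fathers and 21.1 FPKM with medium sugar fathers. Psa, the puromycin-sensitive aminopeptidase of the cytoplasm, had 17.5 FPKM with high sugar fathers and 17.0 FPKM with medium sugar fathers. CG40470 had 5.43 FPKM with high sugar fathers and 6.10 FPKM with medium sugar fathers, and CG2111, CG3502 and CG9806 lay under 1.2 FPKM in both embryo groups. By level in the family, CG31198 was number 7 of 20 with high sugar fathers and number 10 with medium sugar fathers. CG31233 was number 12 with high sugar fathers and number 18 with medium sugar fathers.

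In sperm, 7 of the 20 family members were tested, and the authors' deposited table calls 1 higher and 0 lower, the 1 being CG31198. The background there was 0.341%, and the median log2 ratio over the 7 was -0.07, against -0.05 over all tested sperm genes. The other 6 differed little. CG31445 was the highest in the family, with 30.4 FPKM in high sugar sperm and 34.0 FPKM in medium sugar sperm, although it stood near 1 FPKM in embryos. CG10602 had 28.0 FPKM in high sugar sperm and 29.9 FPKM in medium sugar sperm, and Psa had 26.0 FPKM in high sugar sperm and 22.9 FPKM in medium sugar sperm. The values of sda were 20.6 FPKM in high sugar sperm and 24.4 FPKM in medium sugar sperm. Those of CG14516 were 14.2 FPKM in high sugar sperm and 13.3 FPKM in medium sugar sperm, and those of CG32473 were 11.5 FPKM in high sugar sperm and 12.0 FPKM in medium sugar sperm. Untested CG8774 had 0.678 FPKM in high sugar sperm and was listed at 0 in medium sugar sperm, and CG8773 had 0.475 FPKM in high sugar sperm and 0.160 FPKM in medium sugar sperm. CG31198 was number 7 of the family in high sugar sperm, below the other 6 tested genes.

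**Figure D4:**
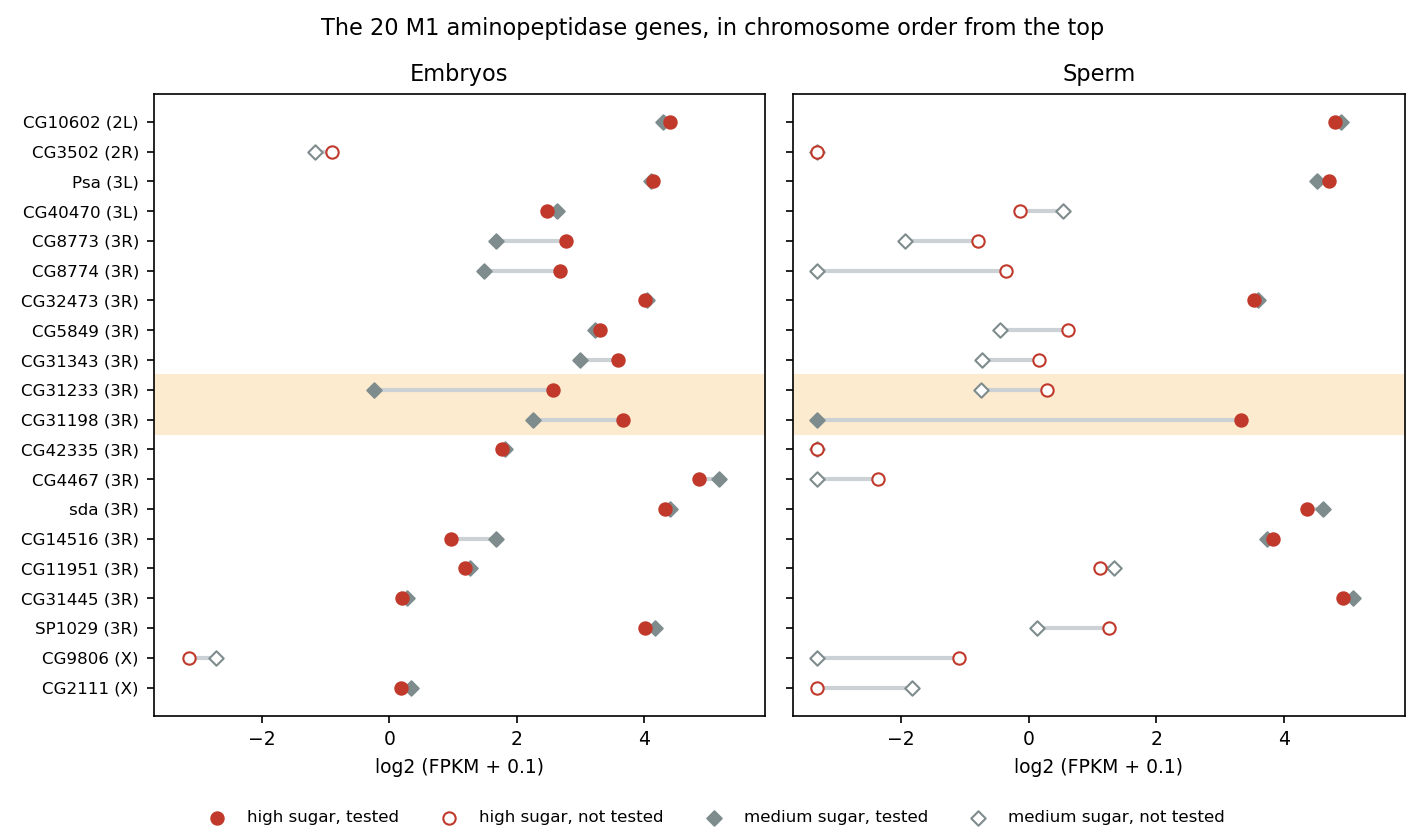
Levels of the 20 M1 aminopeptidase genes as log2 of FPKM plus 0.1 in embryos (left) and sperm (right), with high sugar as circles, medium sugar as diamonds and open symbols where the authors did not test the gene. The shaded pair, CG8773 and CG8774 have the widest gaps among tested embryo genes, and CG31198 has the widest gap in sperm.

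Marker genes of other tissues were read beside these results. In embryos, the 27 genes of midgut and digestive enzymes summed to 52.7 FPKM with high sugar fathers and 42.3 FPKM with medium sugar fathers. Of them 4 were tested and 0 were called, too few to read, since 0.807% of all tested embryo genes were called. Of the 27, 11 were listed at 0 in both embryo groups, among them Amy-p, alphaTry and betaTry. The maltase gene Mal-A2 had 3.88 FPKM with high sugar fathers and 0.986 FPKM with medium sugar fathers, and the authors' deposited table gives an adjusted p of 0.0808. The protease gene Jon65Aiii had 12.0 FPKM with high sugar fathers and 5.32 FPKM with medium sugar fathers, and the authors' deposited table gives an adjusted p of 0.388. Mal-A3 had 13.1 FPKM with high sugar fathers and 8.83 FPKM with medium sugar fathers, while Mal-B1 had 21.3 FPKM with high sugar fathers and 25.9 FPKM with medium sugar fathers. Cuticle genes were taken by their names Cpr, Twdl, Lcp and Ccp84A. They summed to 3617 FPKM with high sugar fathers and 1592 FPKM with medium sugar fathers. The authors' deposited table called 19 of the 69 tested ones higher, against 0.708% of all tested embryo genes. The part of either list in the values of the pair was not tested.

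In sperm, the 27 midgut and digestive genes summed to 67.3 FPKM with high sugar and 70.5 FPKM with medium sugar. Of these sums, the amylase genes Amy-p (34.5 FPKM with high sugar and 35.2 FPKM with medium sugar) and Amy-d (23.8 FPKM with high sugar and 26.2 FPKM with medium sugar) made up most, and 13 genes were listed at 0 in both sperm groups, among them Mal-A2, Mal-A3 and Mal-A4. Spermatid genes summed to 1911 FPKM with high sugar and 838 FPKM with medium sugar, and 20 of 20 were higher with high sugar. By the authors' test, 19 of these could be judged and 3 were called higher. Genes of the accessory gland and ejaculatory duct summed to 1174 FPKM with high sugar and 452 FPKM with medium sugar, and 16 of 18 were higher with high sugar. Dup99B made up the largest part of these sums, with 778 FPKM with high sugar and 254 FPKM with medium sugar. Here 13 were tested and 1, Dup99B, was called higher. Its adjusted p was 0.0314 in the authors' deposited table. Recomputed over the tested genes, it was 0.0849, above the threshold. For comparison, 5795 of all 15146 genes were higher and 5759 lower with high sugar in sperm. Of all tested sperm genes, 0.325% were called higher. Of the 10 fat body genes, Tsf1 made up nearly the whole sum, with 107 FPKM with high sugar and 429 FPKM with medium sugar, while of the list 4 were higher with high sugar, 3 were lower and 3 were listed at 0 in both sperm groups. Muscle genes summed to 2636 FPKM with high sugar and 2869 FPKM with medium sugar. The part of these differences in the value of CG31198 was not tested.

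The genes whose values were most like those of each member were found by the root mean square difference of log2(FPKM + 0.1) over the 4 groups, among all genes. For CG31198 the nearest was Uhg8, a host gene of small nucleolar RNAs, at 0.49, followed by CG4783 at 0.50, CG15249 at 0.69, CG30148 at 0.74 and CG42550 at 0.86. All 5 were listed at 0 in medium sugar sperm, where CG31198 is too. The search itself favours this, since with 0.1 added a value of 0 lies far from higher ones on the log2 scale. Of these, CG15249 was also called in embryos, with 22.2 FPKM with high sugar fathers and 7.01 FPKM with medium sugar fathers (adjusted p = 0.0412 in the authors' deposited table). Uhg8 had 14.6 FPKM in high sugar sperm, and CG4783 had 9.25 FPKM, and in the authors' deposited table their unadjusted p-values there were 0.0934 for Uhg8 and 0.192 for CG4783.

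For CG31233 the nearest genes were CG13024 at 0.49, CG1208 at 0.73, CG34375 at 0.85, CG6129 at 0.85 and CG33107 at 0.86. None of them was called in either tissue. CG13024 had 3.27 FPKM in embryos of high sugar fathers and 0.858 FPKM in embryos of medium sugar fathers, and 0.804 FPKM in high sugar sperm and 0.382 FPKM in medium sugar sperm. CG31233 was not among the 5 nearest genes of CG31198, nor the reverse. The likeness rests on 4 values per gene and is a description.

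**Figure D5:**
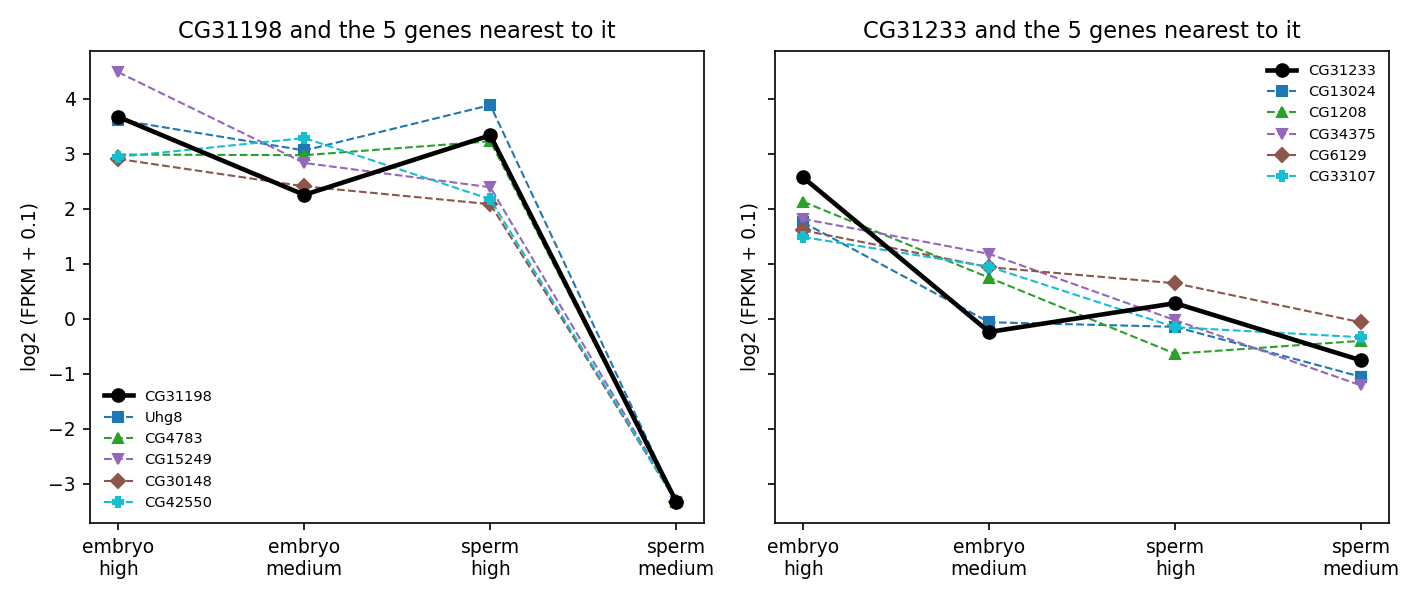
Values of CG31198 (left) and CG31233 (right), in black, with the 5 genes nearest to each, as log2 of FPKM plus 0.1 in the 4 groups. As the search on these same values favours, the genes near CG31198 are all at 0 FPKM in medium sugar sperm, and those near CG31233 share its low values in sperm.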

How the data were processed

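RNA was measured in 8 libraries, 2 in each of 4 groups. Reads were handled with Cuffdiff 2.1.1 and TopHat2 2.0.8 on build BDGP5, per the submitters' processing notes; the annotation, options and scaling are not stated in these sources. Libraries were stranded and made after removal of ribosomal RNA from Trizol extracts, per the labels. Per the file headers, the deposited values are FPKM, which the authors gave as 1 value per group. The p-value columns, raw and, by their header, Benjamini-Hochberg adjusted, are the authors' own test, which left genes of low signal untested. In sperm the deposited adjusted p of CG31198 was smaller than a Benjamini-Hochberg adjustment over the tested genes gave. Of the 22 sperm calls, 16 remained under that adjustment, while all 82 embryo calls remained. The deposited values were kept for the calls. With no value per library, no test was fitted here, and no replicate error can be given. The labels do not say whether libraries are separate crosses, so the spread behind the authors' p-values may be technical. The number of unused columns of values per sample is 0.

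The members and lists were chosen with earlier results of these data known. Ratios were computed from FPKM, on the log2 scale with 0.1 added, which understates the change of low genes. A gene was called at an adjusted p under 0.05. Genes named are the pair, all genes within 20 kb, the family list and the 5 nearest genes of each. CecA2, CG10560, CG11634, Cyp6a18, salt, CG18170, Cpr92F, CG5326 and the individual marker genes were picked for naming with their values in view. The family list had 23 entries, of which 2 were not matched (CG5839, an older name of both CG31233 and CG31343, and CG46339, a newer name of sda) and 1 was an older name of CG42335. Starts in the tables were raised by 1. The tables pair 15146 identifiers with symbols, of which 14278 matched the BDGP6 annotation, used for exons and lengths only. Of the embryo symbols, 5 had become dates and were taken from the sperm table. Python 3.11.15, pandas 2.3.3 and numpy 2.4.6 were used, and the adjustment and the search for near genes were tested on simulated data. Alternatives were other pseudocounts, centring, thresholds, filters and windows.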

Additional observations from a re-analysis of the deposited data

How the results depend on the processing

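The log2 ratios of the pair kept their sign under every pseudocount and centring tried. With 0.01 FPKM added, CG31198 came to 1.43 in embryos and 9.96 in sperm, and CG31233 to 2.95 in embryos and 1.17 in sperm. With 1 FPKM added these were 1.26, 3.46, 1.97 and 0.50 in the same order. After subtraction of the median ratio over genes averaging at least 10 FPKM, they were 1.45, 6.73, 2.84 and 1.12. With 0.1 added the values were 1.42, 6.65, 2.81 and 1.04. The sperm ratio of CG31198 is set by the added amount, since the medium sugar value is 0. At an adjusted p under 0.1, 1 gene within 20 kb passed in sperm, CG34034, and 3 family genes passed in embryos, with CG8774 as the third. The counts of called neighbours and family genes under the other thresholds, filters and windows were equal or within 1.5 times. No paired analysis was possible because the tables hold 1 value per group, and for the same reason no library could be left out. Depth is unknown, so no floor can be set for values of 0.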
